A study of Mus musculus with 2 samples.

Results

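Apolipoproteins and the protein that loads them with fat were followed across the cells of co-cultures of mouse fibroblasts and intestinal crypts. The 7 genes, of 18309 in the count tables, were taken by name: Apoa1, Apoa4, Apob, Apoc2, Apoc3, Apoe and Mttp. C57BL6 mice, 10 weeks old, gave the small intestinal tissue, and the cultures were kept in Organoid Growth Media, released with trypsin and EDTA, and profiled by Drop-seq, which tags the mRNA of single cells in droplets near its 3′ end. Ptger4 is the gene of EP4, through which prostaglandin E2 signals. The Ptger4-ON cultures received only the DMSO vehicle and grew as spheroids. The Ptger4-OFF cultures received ONO-AE3-208, a Ptger4 inhibitor dissolved in DMSO, at 10 uM every second day and grew as budding organoids. Both conditions held fibroblasts as well as crypt cells. Each condition was 1 library from a pool of 6 cultures, so no difference has a replicate check. All intervals are 95% and cover counting error only, not the variation between cells, cultures or mice.

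Enterocytes, the absorptive cells of the gut lining, package dietary fat into chylomicrons. Apolipoprotein B is the backbone of each particle, and the microsomal triglyceride transfer protein, encoded by Mttp, loads it with lipid in the endoplasmic reticulum. Apolipoproteins A-I and A-IV join the surface, C-II activates lipoprotein lipase in the circulation, C-III inhibits it, and apolipoprotein E binds the receptors that clear remnants.

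The Ptger4-ON library held 7408303 unique molecular identifiers (UMIs, 1 per captured mRNA molecule) in 908 barcodes with a median of 4366. The Ptger4-OFF library held 9490205 in 1599 barcodes with a median of 4161. After filtering, 588 and 1201 cells were epithelial-like (median 4621 and 4158 UMIs) and 288 and 359 were fibroblast-like (median 4612.5 and 4495 UMIs). The summed epithelial marker list was at 16823 and 13923 UMIs in each 1000000 (CPM) in the first class and at 193.5 and 277 in the second. In the second class, the fibroblast list stood at 36185 and 35163 CPM. Barcodes over 50000 UMIs numbered 16 in Ptger4-ON and 6 in Ptger4-OFF. All were epithelial-like and held 22.9% and 4.97% of that class's UMIs. The libraries shared 1 barcode.

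Of the 7 genes, 3 form a cluster on chromosome 9 (GRCm38, GENCODE vM21). Apoa1 lies at chr9:46228580-46230466 on the plus strand, Apoc3 at chr9:46232933-46235636 on the minus strand and Apoa4 at chr9:46240696-46243459 on the plus strand, with 2467 and 5060 bases between them. Apoc2 (chr7:19671579-19677941) and Apoe (chr7:19696109-19699188), both on the minus strand, are 18168 bases apart. Apob lies alone at chr12:7977648-8016835 on the plus strand and Mttp at chr3:138089854-138144968 on the minus strand. Each is annotated as protein coding. Apoc2 starts 142 bases from Apoc4. Apoc2 also shares its span with the read-through gene Gm44805, so its tags could belong to more than 1 annotated gene.

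The upstream sequences of Apoa1 and Apob are shown because only these genes had 1 listed start and a long enough stretch before it outside annotated genes. They come from RefSeq (GRCm38.p6), 5′ to 3′ on the plus strand, and stop short of the annotated genes. The Apoa1 stretch is chr9:46228380-46228579 and the Apob stretch chr12:7977427-7977628. Capitals mark matches to the motifs searched on both strands, which were AGGTCA (a nuclear receptor half-site), CAAAGG and CAAAGT (cores of HNF4 sites) and TATAAA.
Apoa1: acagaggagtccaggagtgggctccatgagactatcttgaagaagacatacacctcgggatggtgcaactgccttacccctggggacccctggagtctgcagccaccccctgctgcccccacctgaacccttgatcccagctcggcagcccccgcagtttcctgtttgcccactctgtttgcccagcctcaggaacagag
Apob: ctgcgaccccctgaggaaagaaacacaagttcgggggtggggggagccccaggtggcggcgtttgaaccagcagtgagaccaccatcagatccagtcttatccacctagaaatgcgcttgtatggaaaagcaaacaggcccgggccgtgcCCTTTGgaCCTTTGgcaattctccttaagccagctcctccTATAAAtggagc
The Apob stretch holds CCTTTG, the reverse complement of CAAAGG, starting 100 and 92 bases before the start, and TATAAA at 60. The Apoa1 stretch held no match. Apoc3 was not searched. For the other genes, the remaining matches in the 250 bases before the start were CAAAGT at 182 bases for Apoa4, AGGTCA at 115 and CAAAGT at 24 for Apoc2, CAAAGG at 239 for Mttp and a further CAAAGG at 42 for Apob. Of the 3 Apoe starts listed, 1 had CAAAGG at 55 bases and another had CAAAGG at 230 and TATAAA at 100 and 96. Among 32851 promoters, AGGTCA was found in 14%, CAAAGG in 17.6%, CAAAGT in 12.6% and TATAAA in 12.4%, so each motif is common. A match is a string of letters, not a shown binding site.

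In epithelial-like cells, 5 of the 7 genes had a level at least 2-fold higher in Ptger4-OFF and 0 were at least 2-fold lower. Among all 11613 genes with at least 20 UMIs in the class, 2.98% were that much higher and 4.31% that much lower. The median log2 ratio was 1.42 over the 7 genes and -0.04 over all genes. The 5 were both A apolipoproteins, both C apolipoproteins and Mttp, while Apob and Apoe differed by less. Levels are CPM of the class total and are not scaled to transcript length. With 3′ tags each transcript gives about 1 tag, and capture can differ between genes, so levels are compared between libraries and not between genes.

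Among the surface apolipoproteins, Apoa1 stood at 454 CPM in Ptger4-ON and 923 in Ptger4-OFF, a ratio of 2.03 (interval 1.94 to 2.13), or 1.64 with equal weight per cell. Apoa4 stood at 33.97 and 464 CPM, from 188 and 3529 UMIs, a ratio of 13.7 (11.8 to 15.9). These genes lie 10230 bases apart and had the smallest and the largest ratio of the 5, although the intervals of Apoa4 and Apoc3 overlap. Apoc2 was at 47.5 and 191 CPM, a ratio of 4.03 (3.53 to 4.61). Apoc3 was at 3.79 CPM from 21 UMIs and at 48.4 CPM from 368, a ratio of 12.8 (8.22 to 20.9). Both C apolipoproteins were higher in Ptger4-OFF, the lipase inhibitor by more than the activator, and their intervals do not overlap. Apob, the particle backbone, was at 80.96 and 89.6 CPM, a ratio of 1.11 (0.980 to 1.25). Mttp, its lipid loader, was at 60.4 and 161 CPM, a ratio of 2.68 (2.37 to 3.03). The loader and the backbone therefore differed unequally between the libraries. Apoe was at 9.94 and 8.81 CPM, from 55 and 67 UMIs, a ratio of 0.887 (0.611 to 1.29).

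**Figure D1:**
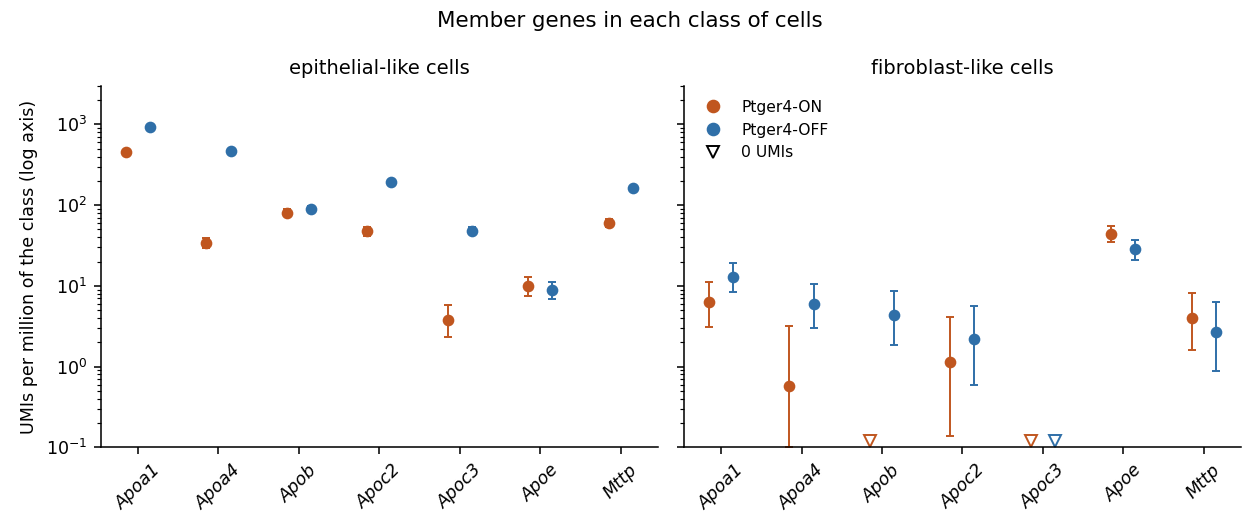
Level of each gene (vertical axis, CPM of the class, log scale) in epithelial-like cells (left) and fibroblast-like cells (right). Points are single libraries, bars are 95% Poisson intervals and open triangles mark 0 UMIs. In epithelial-like cells Apoa4 stands at 33.97 and 464 CPM while Apob stands at 80.96 and 89.6. Apoe is the gene with higher values in fibroblast-like cells, at 43.8 and 28.3 CPM.

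Fibroblast-like cells gave the background for free RNA, the mRNA of broken cells that enters every droplet. Apoa1 reached 6.26 and 13.1 CPM there and Apoa4 0.569 and 5.98. The Apoa1 values were 1.38% and 1.41% of the epithelial-like level, and those of Apoa4 1.68% and 1.29%. A list of 6 common epithelial transcripts stood at 1.18% and 1.96% by the same measure, so both genes were at the background in fibroblast-like cells. Apoc3 had 0 UMIs there in either library, which allows up to 1.71 and 1.63 CPM. Mttp had 7 and 5 UMIs and Apoc2 2 and 4, and Apob had 0 in Ptger4-ON and 8 in Ptger4-OFF. Fewer cells of a type and less RNA per cell cannot be told apart in a summed level, so the cells were next taken by state.

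Epithelial-like cells were clustered without the 7 genes among the clustering genes. Cluster 3 is called enterocyte-like, since all 14 enterocyte markers were detected, their sum was 26.7-fold that of the rest, and Cyp3a11, Lct and Fabp1 were among its 10 leading genes. It held 20 cells in Ptger4-ON (3.40% of the class) and 106 in Ptger4-OFF (8.83%). Apoa4 and Apoc3 were also among its 10 leading genes, although neither was used to form it. Cluster 1 (219 and 399 cells) carried the cycling markers, cluster 2 (68 and 61) was led by Paneth and goblet genes, and cluster 4 (147 and 551) had Nrn1 among its leading genes. Cluster 0 (133 and 67 cells) was led by Prl2c3, Ctse and Msln and had 13.6-fold more of the fetal-like list than the rest. A further 1 and 17 enteroendocrine-like cells formed cluster 7, with at most 6 UMIs of any of the 7 genes per library. Shares of cells also depend on which cells trypsin released and droplets caught, which was not tested.

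The enterocyte-like cluster held 90.9% of the Apoa1 UMIs, 98.4% of Apoa4 and 97.8% of Apoc3 in Ptger4-OFF epithelial-like cells. In Ptger4-ON it held 81.5%, 67.6% and 76.2%. It had 43.0% of the Apoc2 UMIs in Ptger4-ON and 69.1% in Ptger4-OFF, 29.7% and 51.5% of Apob, and 47.0% and 55.8% of Mttp. The A apolipoproteins and Apoc3 were thus concentrated in this cluster more than Apob and Mttp, which were spread further. Apoe had 0 and 3 UMIs there, and 0 UMIs in Ptger4-ON allows up to 14.7 CPM.

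**Figure D2:**
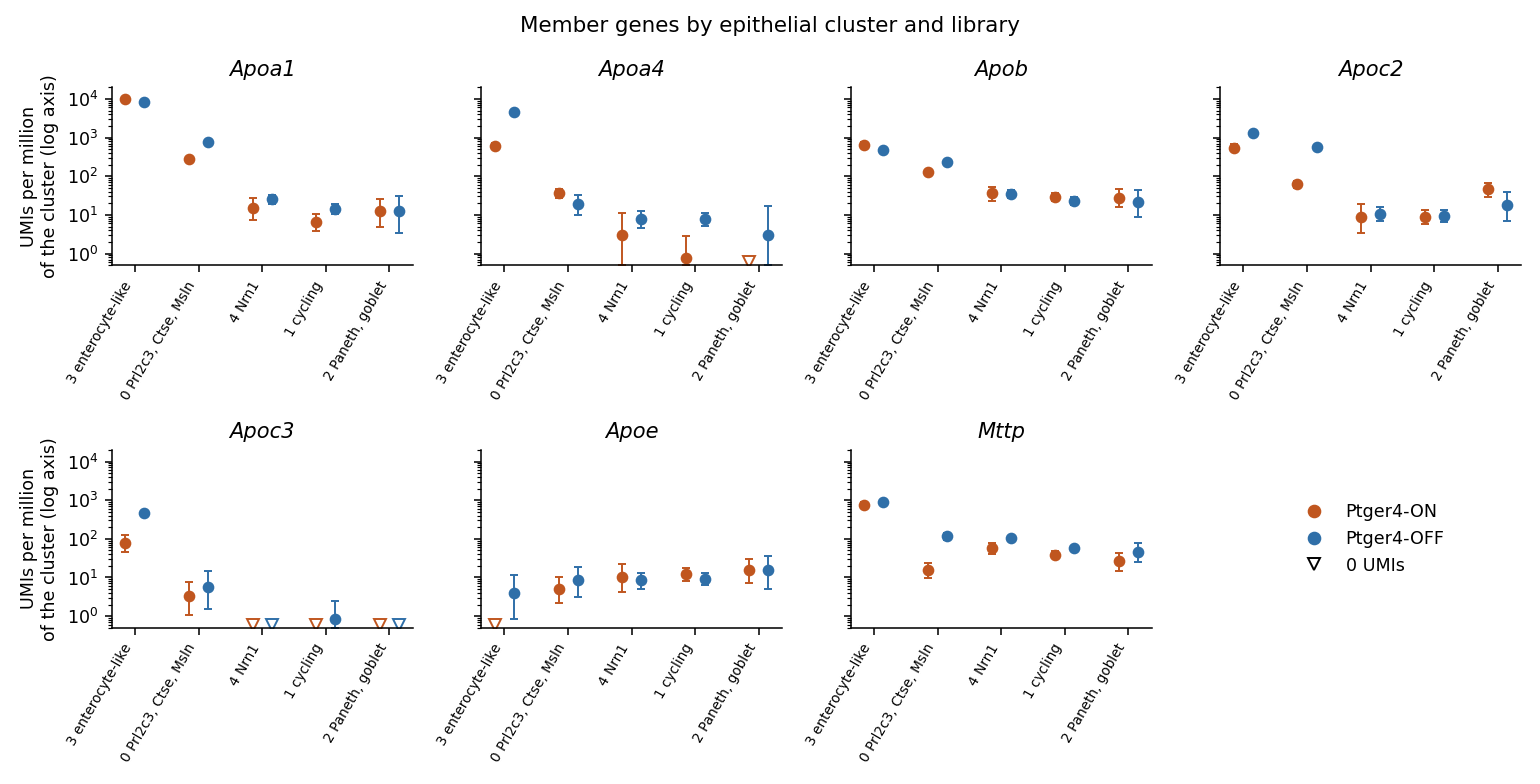
Level of each gene (vertical axes, CPM of the cluster, log scale) in 5 epithelial clusters (horizontal axes). Points are single libraries, bars are 95% Poisson intervals and open triangles mark 0 UMIs; the 18 enteroendocrine-like cells are left out. In the enterocyte-like cluster, Apoa1 is at 9996 and 8469 CPM and Apoa4 at 620.5 and 4605. Mttp and Apob are at 15.6 CPM or more in all 5 clusters, and Apoe is at 15.8 CPM or less.

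Within the enterocyte-like cluster the 7 genes parted. Per cell, Apoa1 ranged from 0 to 31543 CPM with a median of 3698 in Ptger4-ON and from 0 to 72891 with a median of 4530 in Ptger4-OFF. The summed level was 9996 against 8469 CPM, a ratio of 0.847 (0.806 to 0.891), so the sum and the median cell differ in direction. Apoa4 ranged from 0 to 7433 CPM with a median of 119.9 in Ptger4-ON and from 0 to 59226 with a median of 1732 in Ptger4-OFF. Its sum was 620.5 against 4605 CPM, a ratio of 7.42 (6.22 to 8.93). The ranges of cells overlapped for both genes, and for Apoa4 the sum and the median were both higher in Ptger4-OFF. Apoc3 was at 78.2 and 478 CPM (ratio 6.11, 3.71 to 10.8) and Apoc2 at 552 and 1335 CPM (ratio 2.42, 1.99 to 2.96). Mttp was at 767 and 909 CPM, a ratio of 1.18 (0.995 to 1.42). Apob was at 650 and 466 CPM, a ratio of 0.717 (0.585 to 0.882).

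The cluster in Ptger4-ON rests on few cells. Its deepest barcode, at 92081 UMIs, held 45% of the cluster's UMIs, against 7.73% for the deepest in Ptger4-OFF. Without the barcodes over 50000 UMIs, the ratio was 5.63 for Apoa4, 0.862 for Apoa1, 0.552 for Apob, 1.02 for Mttp, 2.19 for Apoc2 and 5.92 for Apoc3. Cells chosen instead by at least 3 enterocyte marker UMIs, which were 54 and 196 cells, gave 8.83 for Apoa4 but 1.33 for Apoa1 and 1.12 for Apob. The direction for Apoa1 and Apob in enterocytes therefore depends on how the cells are chosen. That for Apoa4, Apoc3 and Apoc2 did not in these settings. For Mttp the direction was not settled. Its interval held both directions in the cluster (0.995 to 1.42) and without the barcodes over 50000 UMIs (0.827 to 1.28). The cells chosen by marker UMIs gave an Mttp ratio of 2.12 (1.80 to 2.51). The enterocyte markers did not move together either. The list's sum was 26539 and 28380 CPM in the cluster, with Fabp1 at 8965 and 15936 and Cyp3a11 at 171 and 896, while Sis, the sucrase-isomaltase gene, was at 5404 and 2210. The part of enterocyte maturity in the Apoa4 value was not tested.

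The balance of both A apolipoproteins was read within cells, where depth cancels. In the enterocyte-like cluster, Apoa4 made up 127 of 2173 Apoa1 and Apoa4 UMIs in Ptger4-ON, which is 5.84% (exact Clopper-Pearson interval 4.90 to 6.91), and 3471 of 9854 in Ptger4-OFF, which is 35.2% (34.3 to 36.2). Among cells with at least 10 such UMIs, Apoa4 shares ran from 3.50% to 33.3% in the 10 Ptger4-ON cells with a median of 6.34%, and 0 were above 50%. The 64 Ptger4-OFF cells ranged from 0% to 86.5% with a median of 39.6%, and 23 were above 50%. The ranges overlapped, with 7 Ptger4-OFF cells under 10%. Without the deep barcodes the summed shares were 7.84% and 35.7%. In the other epithelial-like cells, Apoa4 was 11.6% of 526 such UMIs in Ptger4-ON and 8.36% of 694 in Ptger4-OFF. Of the 61 Apoa4 UMIs there in Ptger4-ON, 47 came from 1 cell of cluster 0. In the 5 and 7 of these cells with at least 10 UMIs of the pair, the median Apoa4 share was 2.04% and 0%.

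**Figure D3:**
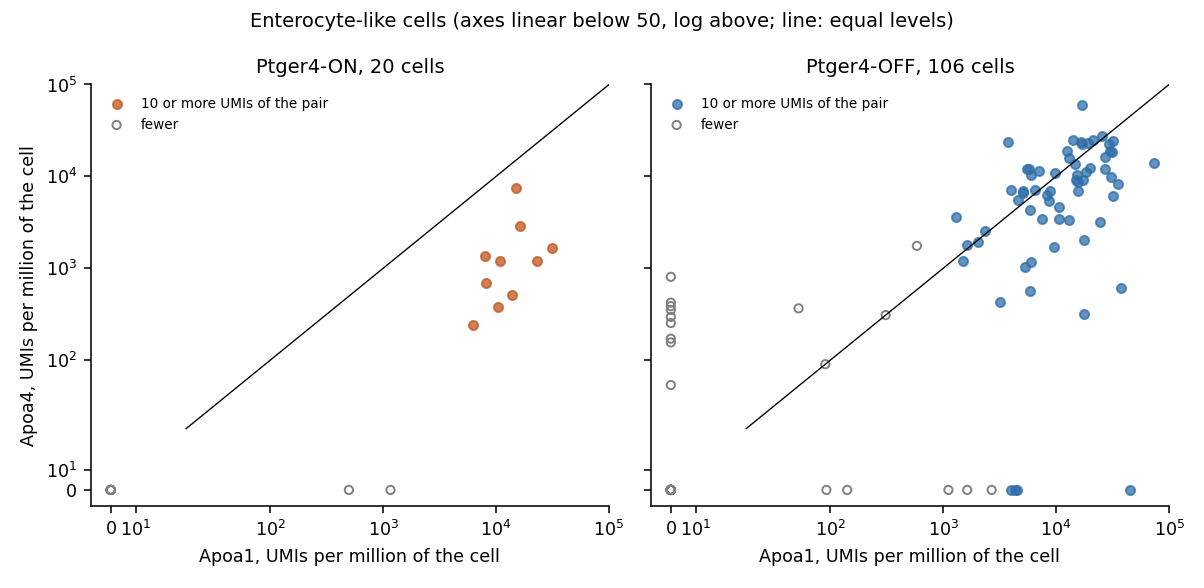
Apoa4 against Apoa1 in each enterocyte-like cell (CPM of the cell, axes linear below 50 and log above), Ptger4-ON at left and Ptger4-OFF at right. Filled points are cells with 10 or more UMIs of the pair and the line marks equal levels. All 10 filled Ptger4-ON cells lie below the line, and 23 of the 64 Ptger4-OFF cells lie above it.

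Outside the enterocyte-like cluster the order of the genes changed. In cluster 0, Apoc2 was at 61.6 and 556 CPM, a ratio of 9.02 (7.19 to 11.4), although 134 of its 386 Ptger4-OFF UMIs came from 1 cell. Without the highest cell of each library the Apoc2 ratio was 7.10 (5.50 to 9.25). Mttp in cluster 0 was at 15.6 and 115 CPM, a ratio of 7.40 (4.64 to 12.2). Apob there was at 129 and 232 CPM, a ratio of 1.80 (1.45 to 2.22). With each cell thinned to 1000 UMIs, the mean count per cell had a ratio of 4.11 for Apoc2, 2.29 for Mttp and 1.02 for Apob. The Mttp value rests on 3 and 5 positive cells, so its size in this cluster is poorly set. Apoa1 was at 279.5 and 754 CPM, a ratio of 2.70 (2.37 to 3.07), with 72.9% and 62.0% of its UMIs in 3 cells of each library. The thinned mean Apoa1 count per cell had a ratio of 0.722, so the direction for Apoa1 in cluster 0 depends on how cells are weighted. Apoa4 was at 36.97 and 18.7 CPM, a ratio of 0.506 (0.254 to 0.936), and 47 of the 57 Ptger4-ON UMIs lay in 1 cell. Without the highest cells the Apoa4 ratio was 2.25 (0.841 to 6.03).

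Mttp and Apob were also detected in the cells that carried few enterocyte markers. Mttp stood at 57.3 and 106 CPM in cluster 4, a ratio of 1.85 (1.31 to 2.67), and at 38.9 and 58.4 CPM in the cycling cluster, a ratio of 1.5 (1.18 to 1.92). Both were above the 3.98 and 2.72 CPM of fibroblast-like cells. Apob stood at 36.2 and 35.1 CPM in cluster 4 and at 29.9 and 23.1 CPM in the cycling cluster, against 0 and 4.35 CPM in fibroblast-like cells. In contrast, Apoa1 in the cycling cluster was at 6.68 and 14.4 CPM and Apoa4 at 0.786 and 7.61, close to their fibroblast-like values. Those Apoa1 and Apoa4 values are read as background and not as a difference between the libraries. Apoc3 had 0 UMIs in clusters 2 and 4 in both libraries, which allows up to 9.22 CPM in the smaller, Ptger4-OFF part of cluster 2.

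To read how many cells carried a gene beside how much each carried, every cell was thinned to 1000 UMIs, which 530 and 1153 epithelial-like cells reached. In Ptger4-ON, Apoa1 was found in 4.91% of cells (3.23 to 7.11), and in Ptger4-OFF in 8.33% (6.80 to 10.1), with a mean of 11.5 and 10.3 UMIs per positive cell. Apoa4 was found in 1.51% (0.654 to 2.95) and 5.64% (4.38 to 7.13), with 3.13 and 8.69 UMIs per positive cell. For Apoa1 the share was 1.70-fold and the level per positive cell 0.894-fold, whereas for Apoa4 both were higher, 3.73-fold and 2.78-fold. Mttp was found in 4.72% (3.08 to 6.88) and 12.7% (10.8 to 14.7), with 1.44 and 1.39 UMIs per positive cell. Apoc2 was found in 3.02% and 6.33% and Apoc3 in 0.377% and 2.25%. For Mttp the share was 2.68-fold and the level per positive cell 0.966-fold. Of its positive cells, 19 of 25 and 106 of 146 had just 1 UMI. At such counts the level per positive cell can hardly vary. The split therefore cannot tell more Mttp-expressing cells from more Mttp RNA in each cell. Apob was found in 7.92% (5.77 to 10.6) and 6.24% (4.92 to 7.80), and its intervals overlap. Unthinned shares were 10.5% and 16.2% for Apoa1, 3.06% and 10.2% for Apoa4, 26.2% and 20.1% for Apob, 10.2% and 12.4% for Apoc2, 1.36% and 5% for Apoc3, and 18.9% and 34.6% for Mttp. In thinned fibroblast-like cells the shares were 1.54% and 1.44% for Apoa1, 0.386% and 1.15% for Apoa4 and 0.386% and 0% for Mttp. The 0 of 348 cells allows up to 0.862%. In Ptger4-ON, the interval of Mttp lay above that of fibroblast-like cells (0.00977 to 2.13), and the intervals of Apoa1 and Apoa4 overlapped theirs.

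Within the enterocyte-like cluster, 18 and 102 cells reached 1000 UMIs. Apoa1 was found in 61.1% and 58.8% of them and Mttp in the same shares, 61.1% and 58.8%. Apoa4 was found in 27.8% (9.69 to 53.5) and 53.9% (43.8 to 63.8), with 2.20 and 10.1 UMIs per positive cell. In cells that already carried the cluster's markers, the share with Apoa1 or Mttp was close. The share and level of Apoa4 were higher in Ptger4-OFF, but the intervals of its share overlap. The Ptger4-ON level rests on 5 positive cells. Apob was found in 55.6% and 32.4%, Apoc2 in 33.3% and 42.2% and Apoc3 in 5.56% and 23.5%. For each of these genes the intervals of the share overlap. The Ptger4-ON shares of Apob, Apoc2 and Apoc3 are 10, 6 and 1 of 18 cells. Cells with at least 10 thinned Apoa4 UMIs numbered 0 in Ptger4-ON and 22 in Ptger4-OFF, and 0 of 18 allows up to 16.7%. Cells with at least 10 Apoa1 UMIs numbered 10 and 38, of which 4 and 3 lay in cluster 0, and all carried at least 10 UMIs of the enterocyte list.

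The shares were then read by how many enterocyte marker UMIs a thinned cell had, from a list that holds none of the 7 genes. With 10 or more marker UMIs (22 and 87 cells), Apoa4 was found in 36.4% (17.2 to 59.3) and 59.8% (48.7 to 70.1), with 3.13 and 10.5 UMIs per positive cell. At the same marker level, Apoa1 was found in 68.2% and 72.4% and Mttp in 63.6% and 64.4%. With 0 marker UMIs (328 and 556 cells), Mttp was found in 2.13% (0.862 to 4.35) and 7.01% (5.04 to 9.46). With 1 or 2, it was found in 2.03% (0.420 to 5.81) and 7.73% (5.31 to 10.8). With 3 to 9, it was found in 3.13% (0.0791 to 16.2) and 18.3% (11.6 to 26.9), the first being 1 of 32 cells. Mttp was therefore found in a larger share of Ptger4-OFF cells with 0 marker UMIs, where the intervals do not overlap. With 1 or 2 and with 3 to 9 the order was the same, but the intervals overlap. With 10 or more the shares were nearly equal. Apob had the opposite order with 0 marker UMIs, at 5.49% (3.28 to 8.53) and 2.52% (1.38 to 4.19), but these intervals overlap. Apoa1 at 0 marker UMIs was at 1.83% and 2.34%, near its fibroblast-like share.

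**Figure D4:**
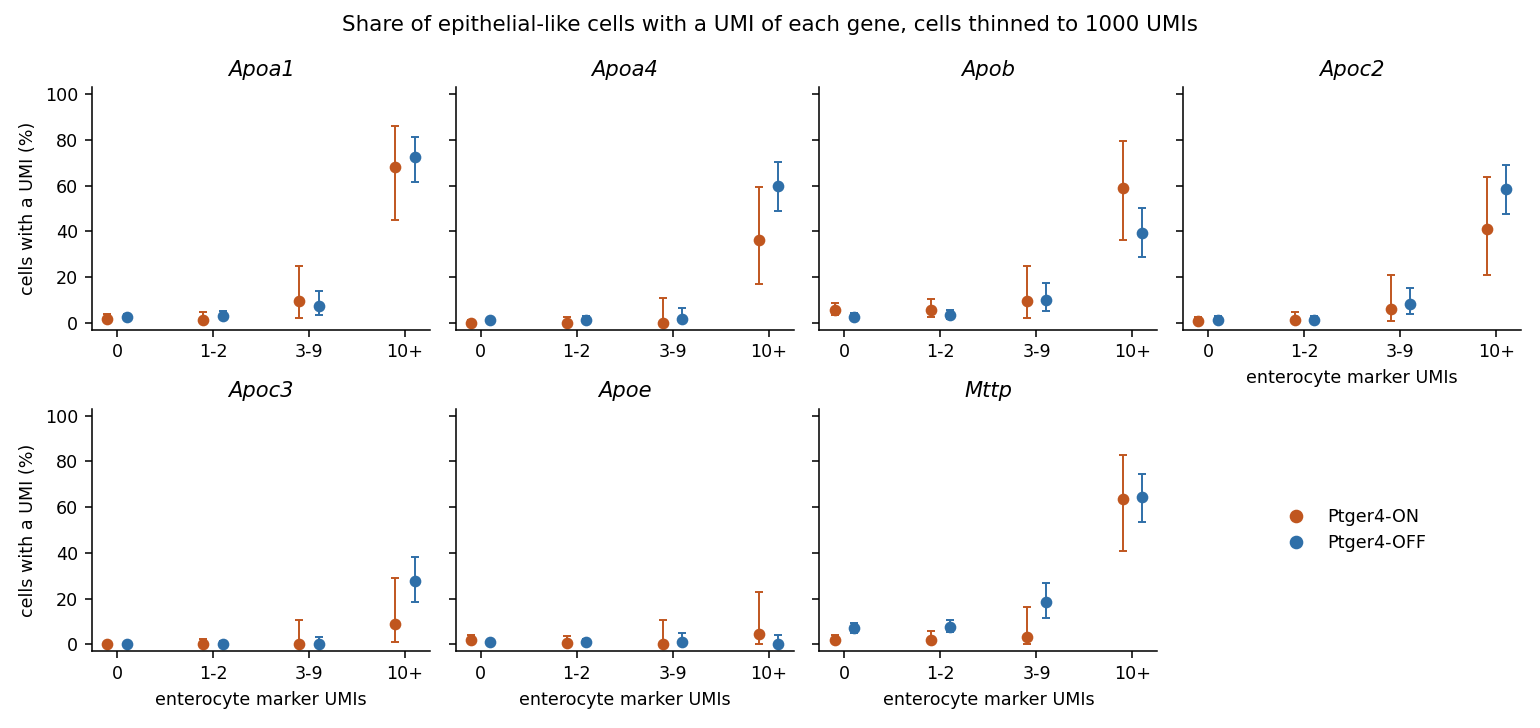
Share of epithelial-like cells with a UMI of each gene (vertical axes, %) by the number of enterocyte marker UMIs in the cell (horizontal axes), cells thinned to 1000 UMIs. Points are libraries and bars are exact 95% binomial intervals. With 10 or more marker UMIs, Mttp is at 63.6% and 64.4% and Apoa4 at 36.4% and 59.8%; with 0, Mttp is at 2.13% and 7.01%.

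The summed levels rested on few cells for the A apolipoproteins. In Ptger4-ON, 2 cells held 50% of the Apoa1 UMIs, and the highest, a 92081-UMI barcode of the enterocyte-like cluster, held 964 of them, 38.4%. In Ptger4-OFF it took 11 cells, and the highest held 12.9%. Apoa4 needed 3 and 10 cells, Apoc2 7 and 11, and Apoc3 3 and 7. Apob needed 21 and 34 cells and Mttp 10 and 46. The Mttp signal was thus the most spread of the 5 genes that were higher in Ptger4-OFF. Apoe, at mostly 1 UMI per cell, needed 23 and 29.

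In thinned epithelial-like cells the genes were often found together. At least 2 of the 7 were found in 15 of 530 Ptger4-ON cells (2.83%) and 92 of 1153 Ptger4-OFF cells (7.98%), and at least 4 in 7 (1.32%) and 46 (3.99%). Of these 46 cells, 44 were enterocyte-like and 2 were in cluster 0. All 8 Apoa4-positive Ptger4-ON cells carried Apoa1, and 7 carried Mttp. Of 65 Apoa4-positive Ptger4-OFF cells, 50 carried Apoa1 (76.9%), 40 Mttp and 38 Apoc2. Of 26 Apoc3-positive Ptger4-OFF cells, 24 carried Apoa1, 23 Apoa4 and 21 Mttp, which lies on another chromosome. Of the same 26 cells, 24 were enterocyte-like. Of 146 Mttp-positive Ptger4-OFF cells, only 51 carried Apoa1 (34.9%), against 4.47% of Mttp-negative cells. Apoa4 was found in 29.4% and 34.5% of cells with Fabp1, the liver-type fatty acid binding protein, and in 8.54% and 28.0% of cells with Krt20, a keratin of mature gut cells. In cells with Lgr5, a crypt stem cell receptor, Apoa4 was found in 0 of 34, which allows up to 8.82%, and in 0.735% of 136. Mttp was found in 2.94% and 7.35% of the Lgr5-positive cells. Cells share depth and library here, so these are descriptions.

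**Figure D5:**
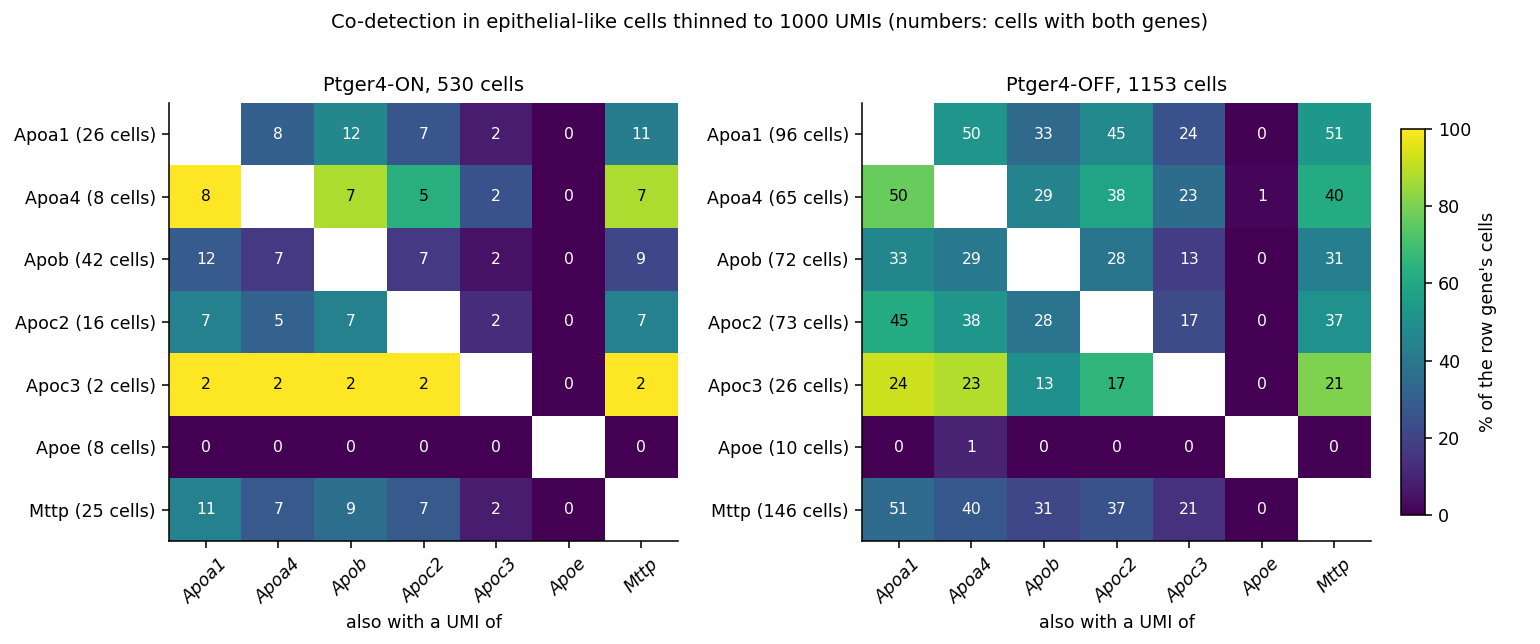
Co-detection of the 7 genes in thinned epithelial-like cells, Ptger4-ON at left and Ptger4-OFF at right. Each row is a gene with its number of positive cells, each column a second gene, the number is the cells with both and the colour is the share of the row gene's cells (%). Apoa4 rows show 8 of 8 and 50 of 65 cells with Apoa1, and the Apoe rows are empty but for 1 Ptger4-OFF cell with Apoa4.

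Apoe stood apart from the others. In epithelial-like cells it was found in 8 and 10 thinned cells, and just 1, in Ptger4-OFF, carried another of the 7 genes. It was found in 0 of 26 and 0 of 96 Apoa1-positive cells, which allows up to 11.5% and 3.13%. Fibroblast-like cells had 43.8 and 28.3 CPM of Apoe, 441% and 321% of the epithelial-like level, a ratio between libraries of 0.645 (0.445 to 0.929). Within that class it was at 91.99 and 107 CPM in cluster 5, led by Ccl5 and Pla2g7, and at 31.5 and 16.3 CPM in the larger cluster 6. In cluster 5, 3 cells of each library held 69.7% of the 33 Ptger4-ON and 53.8% of the 26 Ptger4-OFF Apoe UMIs. Apoe was thus higher in the fibroblast-like cells of these cultures than in the epithelium. It was found in 3.47% and 2.87% of thinned and in 14.6% and 8.64% of unthinned fibroblast-like cells, against 1.51% and 0.867% of thinned and 8.50% and 5.16% of unthinned epithelial-like cells. Apoe is also a macrophage gene. The 12 macrophage and leukocyte genes summed to 21.1 and 17.9 CPM in fibroblast-like and 28.0 and 18.8 CPM in epithelial-like cells. Of these 12 genes, 8 were at 0 in fibroblast-like cells of each library. In epithelial-like cells, 5 were at 0 in Ptger4-ON and 8 in Ptger4-OFF. A part of macrophages in the Apoe level was not tested.

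The genes most like each member were ranked by the lower of the Pearson correlations over the 588 and the 1201 epithelial-like cells, among 7098 genes. These cells share a library and vary in depth, so the values are descriptions. Apoa1 and Apoa4 were each other's nearest gene, at 0.85 in Ptger4-ON and 0.82 in Ptger4-OFF. The other genes most like Apoa1 included Cyp4f14 (0.69 and 0.79), Sepp1 and Creb3l3. Those most like Apoa4 included Ces2a (0.78 and 0.73), Creb3l3 and Sis. Apob was most like Apoa1 (0.49 and 0.62), with Cyp3a13, Ces2a and Apoa4 also among its nearest genes. Apoc2 was also most like Apoa1 (0.59 and 0.74), followed by Apoa4, Ces2a, Creb3l3 and Cyp3a13. Mttp was most like Ces2a and Sis (each 0.57 and 0.57), then Apoa1 and Apoa4. Ces2a, a carboxylesterase, thus appeared among the nearest genes of Apoa4, Apob, Apoc2 and Mttp. Apoc3 and Apoe had under 100 UMIs in a library and were not ranked.

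As lists, the other genes of the pathway differed less, with median log2 ratios under the 1.42 of the 7 genes. Single genes such as Fabp1 and Creb3l3 had ratios above those of some of the 7. The share over all genes beside each list count is 2.98% at least 2-fold higher and 4.31% at least 2-fold lower. Of 22 genes for particle loading and exit from the endoplasmic reticulum, 21 were measured, 1 was at least 2-fold higher and 0 lower, with a median log2 ratio of 0.14. That gene was Tm6sf2, needed for lipidation of secreted particles, at 22.9 and 49.1 CPM. Pla2g12b was next, at 18.4 and 36.0 CPM. P4hb, the partner subunit of Mttp in the transfer complex, was at 512 and 713 CPM, a ratio of 1.39 (1.33 to 1.46) against 2.68 for Mttp. Sar1b, the GTPase of chylomicron export, was at 139 and 188 CPM. Apobec1, which edits the Apob transcript, was at 22.6 and 15 CPM, a ratio of 0.664 (0.510 to 0.862).

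Of 20 genes of fat uptake and triglyceride synthesis, 19 were measured, 4 were at least 2-fold higher and 0 lower, with a median log2 ratio of 0.46. These were Fabp1 (343 and 1693 CPM, ratio 4.93), the sterol exporters Abcg8 (ratio 2.66) and Abcg5 (2.11), and Abca1 with 3 and 30 UMIs. Fabp1 also belongs to the enterocyte list, in which all 14 genes were higher and 3 were at least 2-fold higher, summing to 1795 and 3902 CPM. Of 19 transcription factors of apolipoprotein genes, all measured, 2 were at least 2-fold higher and 0 lower. Creb3l3, a membrane-bound factor of lipid genes, was at 39.6 and 114 CPM (ratio 2.88, 2.48 to 3.36) and Nr1h3, an oxysterol receptor, at 3.43 and 7.63 CPM. Hnf4a, a factor of many apolipoprotein genes, was at 244 and 295 CPM, a ratio of 1.21 (1.13 to 1.30), and Ppard had a ratio of 0.576. Of 14 lipoprotein receptors and remodelling genes, 8 were measured and 0 were 2-fold apart. Among these, Lrp1 had the highest ratio, 1.80, and Abca7 the lowest, 0.631. Of 19 other apolipoproteins, 6 were measured, and 1 was at least 2-fold lower. That gene was Clu, apolipoprotein J and a fetal-like marker, at 1272 and 487 CPM. Apoo had a ratio of 1.45.

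The nearest protein-coding neighbours of the chromosome 9 cluster with at least 20 UMIs had ratios from 0.790 to 1.26. Sik3, 4386 bases before Apoa1, was at 17.5 and 17.8 CPM, a ratio of 1.01 (0.775 to 1.33), and Zpr1, 29605 bases after Apoa4, had a ratio of 1.10 (0.928 to 1.30). Apoa5 lies between them and had 0 UMIs in epithelial-like cells of both libraries, which allows up to 0.542 and 0.395 CPM. Beside Apoe, Tomm40 was at 170 and 168 CPM, and Apoc1 had 1 and 4 UMIs. Clptm1, 6546 bases from Apoc2, had a ratio of 0.846 (0.712 to 1.00). On chromosome 3, Adh1, an alcohol dehydrogenase 116023 bases from Mttp, was at 3.79 and 33 CPM, a ratio of 8.70 (5.57 to 14.3). No neighbour of Apob with at least 20 UMIs was 2-fold apart.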

How the data were processed

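Single cells of co-cultures in 2 conditions, 1 library each from a pool of 6 cultures, were profiled by Drop-seq. The deposited values are whole counts for each gene in each barcode, not normalized. That they count UMIs follows from the Drop-seq protocol, per the labels. STAR 2.6 and mm10 appear in the submitters' processing notes, without their roles. How reads were counted, on which annotation, and how barcodes were selected is not given in the sources used here.

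A cell needed 300 genes and no more than 20% mitochondrial UMIs, which left 882 and 1564. Doublets (6 and 4, called by Scrublet in each library) were removed. Tools were scanpy 1.11.5 with scipy 1.17.1 and numpy 2.4.6 under Python 3.11.15. Both libraries were clustered jointly (Leiden, igraph 0.11.9, resolution 0.5, 30 principal components of 2000 variable genes without the 7 members, 15 neighbours) and clusters were classed from marker lists. UMIs were summed per class or cluster and divided by its total for each 1000000 (CPM), over 5533875 and 7604192 epithelial-like and 1756918 and 1838539 fibroblast-like UMIs. CPM have exact Poisson intervals, ratios exact conditional binomial intervals and shares exact Clopper-Pearson intervals. A limit for a count of 0 uses 3 counts. Log2 ratios add 0.5 to each count, and a gene needed 20 UMIs over both libraries. Shares used cells thinned to 1000 UMIs. The ratio and thinning steps were tested on simulated data. With 1 library per condition, no test was made.

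The members and all lists were chosen with earlier results of these data known. Named genes are the 7 members, at most 3 genes in each direction from every pathway list, by size of ratio, P4hb, Apobec1, Sar1b, Hnf4a and Creb3l3, the 5 genes most like each member (Pearson r of log counts per 10000, at least 100 UMIs in each library) and the 3 nearest protein-coding genes on either side, of which those with a bearing on a member are given. Some genes chosen by this rule are not reported here. Alternatives were other filters, clusters and weights, and TMM and median-of-ratios factors (edgeR 4.0.16, R 4.3.3). Figures were drawn with matplotlib 3.10.9.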

Additional observations from a re-analysis of the deposited data

Results flagged for a closer look

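Some members had opposite directions in different epithelial clusters, with intervals on either side of 1 and no test of the difference itself. The ratio of Ptger4-OFF to Ptger4-ON for Apoa1 was 2.70 in cluster 0 (led by Prl2c3, Ctse and Msln) and 2.15 in cluster 1 (cycling), but 0.847 in cluster 3 (enterocyte-like). For Apoa4 it was 9.69 in cluster 1 and 7.42 in cluster 3, but 0.506 in cluster 0. For Apob it was 1.80 in cluster 0 and 0.717 in cluster 3. The cycling values rest on 17 and 51 UMIs of Apoa1 and on 2 and 27 of Apoa4, at levels close to those of fibroblast-like cells. The Apoa4 value of cluster 0 rests on 1 Ptger4-ON cell with 47 of 57 UMIs.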

How the results depend on the processing

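No paired analysis was possible because each condition has 1 library, and for the same reason no replicate could be left out. The count of members at least 2-fold higher in Ptger4-OFF, 5 as reported, was 5 in 15 of 18 alternatives. Some of these could not differ. Gene filters of 10 and 50 UMIs could change neither this count nor the median log2 ratio. Adding 1 in place of 0.5 to each count could not change the count, and clusters at resolution 1 left each ratio unchanged. The count of higher members was 4 with equal weight per cell, where the Apoa1 ratio was 1.64 (log2 0.72). It was 3 when each cluster was weighted by its share of cells in both libraries, and 2 (Apoc2 and Mttp) without the enterocyte-like cluster. The count at least 2-fold lower was 1 with equal weight per cell (Apoe, log2 -1.03) and 0 otherwise. The median log2 ratio, 1.42, stayed between 1.29 and 1.51 in 15 of 18. It was 0.60 with weighted clusters, 1.61 without the highest cell of each library for each member, and -0.028 without the enterocyte-like cluster. The settings that leave out the highest cells or the enterocyte-like cluster were chosen after seeing the data. For single genes, Apoa1 turned to -0.10 (log2) with weighted clusters and Apoa4 to -0.43 without the enterocyte-like cluster. Within enterocytes, Apoa1 turned to 0.41 and Apob to 0.16 with cells of 3 or more marker UMIs. The cause was not tested. Of 125 single-gene ratios in epithelial-like cells, 106 lay inside the counting interval of the reported ratio, including those that the gene filters could not change. Of 28 ratios of shares, 27 lay inside the counting interval of the ratio at 1000 UMIs, and 1, Apob at 500 UMIs, lay outside it. Thinned to 500 UMIs, the log2 ratio of shares was 0.70 for Apob and 0.06 for Apoe, against -0.35 and -0.82 at 1000 UMIs, so their direction depends on the depth chosen. At 500 UMIs Apoc3 was found in 25 of 1201 Ptger4-OFF cells and in 0 of 586 Ptger4-ON cells, which allows a share of up to 0.512%. For Apoc2 the log2 ratio of shares was 0.27 without thinning, against 1.03. TMM and median-of-ratios factors moved the median of all genes from -0.04 to -0.0022 and -0.0011. Depth limits Apoc3 and Apoe most, at 21 and 55 UMIs in Ptger4-ON.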
